A study of Mus musculus with 2 samples.

Results

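TRBV1 is the mouse TRB variable (V) gene that lies farthest from the D and J segments, and its product is known as Vβ2. Its chains were taken as all contigs called TRB with V gene TRBV1, which gave 517 of 9322 TRB chains, 246 of 4141 from WT and 271 of 5181 from Btla-/- mice. CD4 single positive (SP) thymocytes of mice aged 8 to 12 weeks had been enriched by negative selection with a naive CD4 T cell kit, and their TCR transcripts were sequenced as single cells. The WT mice were of strain C57BL/6J and the others were C57BL/6-Btla KO, which lack the inhibitory receptor BTLA in every cell. Each genotype gave 1 library, and the number of mice behind it was not given in the sources used here. No difference between genotypes therefore has a replicate check, no test was made, and each share carries an exact Clopper-Pearson 95% interval that covers counting error only.

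The WT library held 6003 contigs with 80347 unique molecular identifiers (UMIs, tags that mark single cDNA molecules) and the Btla-/- library 7101 contigs with 75456 UMIs. Every contig was TRA or TRB, the chains that the amplification kit targets, so the absence of TRG and TRD contigs says nothing of lineage. No transcript other than the TCR was measured, and neither Btla nor markers of other cells could be checked. Between the libraries 30 cell barcodes were shared, of which 1 carried a TRBV1 chain in WT and none did in Btla-/-. Droplets with more than 1 cell were not removed.

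In a developing T cell the RAG recombinase joins 1 V, 1 D and 1 J segment at their recombination signals, each made of a heptamer, a spacer and a nonamer. Exonucleases trim the coding ends, hairpin opening can leave short palindromic additions, and terminal transferase adds random bases. The CDR3 loop spans this junction, starts at the conserved cysteine of the V segment and is the part of the chain that lies over the peptide. A cysteine within the loop is uncommon, since its thiol can form disulphide bonds, and TRBV1 is unusual in encoding one.

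In GRCm38 with GENCODE M21, Trbv1 lies at chr6:40891229-40891885 on the + strand. It is 641.3 kb from TRBD1 and 155.5 kb from the next V gene in use, with 10 annotated genes in that gap. The sequences below are read from the genome and show the start of the CDR3 at the end of the last exon, chr6:40891869-40891885, the recombination signal that follows it at chr6:40891886-40891924, and the CDR1 and CDR2 loops at chr6:40891677-40891694 and chr6:40891746-40891763. The start of TRBV5, from the gene at chr6:41062332-41062803 on the + strand, is set beside them as a V segment with the usual single cysteine. In the CDR3 starts capitals mark cysteine codons, and in the recombination signal they mark the heptamer and the nonamer.
TRBV1 CDR3 start: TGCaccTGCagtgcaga
TRBV5 CDR3 start: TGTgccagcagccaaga
TRBV1 recombination signal: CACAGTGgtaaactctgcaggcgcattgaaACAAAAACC
TRBV1 CDR1: aattcccagtatccctgg
TRBV1 CDR2: ctgcggagtcctggggac
The germline TRBV1 start is 17 bases long, 5 whole codons for cysteine, threonine, cysteine, serine and alanine and 2 bases of a codon that the junction completes. The signal has a heptamer of 7 bases, a spacer of 23 bases and a nonamer of 9 bases. Of the 22 V gene calls in use, 1 had a cysteine codon beyond the first in its germline CDR3 start, and that was TRBV1. All 517 TRBV1 contigs carried the genome's CDR1 and CDR2 and 1 shared framework 3, so the variation described here lies in the junction.

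The germline cysteine at residue 3 was present in 245 of 246 TRBV1 CDR3s of WT, 99.6% (97.8 to 99.99), and in 271 of 271 of Btla-/-, where the lower bound was 98.7%. Among the chains of other V genes a cysteine at residue 3 was found in 1 of 3895 and 1 of 4910. Any cysteine beyond the first was carried by 35 of those WT chains, 0.899% (0.627 to 1.25), and 47 of those Btla-/- chains, 0.957% (0.704 to 1.27). A CDR3 with more than 1 cysteine was the rule for TRBV1 and rare for the rest, in both genotypes.

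The single TRBV1 chain without the residue 3 cysteine was a WT chain joined to TRBJ1-4 that kept 8 germline V bases, read in 14 UMIs, with tryptophan at residue 3. Its CDR3 had 11 amino acids. A cysteine that the V segment does not encode, the last of 3 in the loop, was present in 8 of 246 WT chains, 3.25% (1.41 to 6.31), and 1 of 271 Btla-/- chains, 0.369% (0.00934 to 2.04). Of the WT chains 5 were 1 nucleotide sequence in 5 cells, and over distinct chains the counts were 4 of 232 and 1 of 259. In chains of other V genes such a cysteine occurred in 0.899% and 0.957%, and the intervals of the distinct TRBV1 chains include these shares. The WT chains with a lost or an added cysteine are shown in full, with cysteine codons in capitals.
WT, TRBJ1-4, lost: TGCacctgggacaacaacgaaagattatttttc
WT, TRBJ2-1, added: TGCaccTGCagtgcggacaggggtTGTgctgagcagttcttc
WT, TRBJ2-2, added: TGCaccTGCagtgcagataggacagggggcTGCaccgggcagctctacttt
WT, TRBJ2-5, added: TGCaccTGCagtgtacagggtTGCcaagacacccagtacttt
WT, TRBJ2-7, added, in 5 cells: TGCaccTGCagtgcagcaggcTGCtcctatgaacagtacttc
The added cysteine stood at residue 8, 9 or 11, past the germline V bases in each.

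TRBV1 chains kept much of their germline CDR3 start. The length of the V run, the bases from the first cysteine codon on that match the genome without a break, was 14.95 ± 1.99 bases in WT (SD over 246 chains) and 15.23 ± 1.93 in Btla-/- (SD over 271 chains), of 17 possible. Chains of other V genes kept 13.5 and 13.48 bases. The run is an upper bound, since an added base can match the lost one by chance, and TRBV1 starts are longer than the 16.19 and 16.22 bases that the other chains' V segments offer on average. Counted as bases lost the direction was the same, with 2.05 in WT and 1.77 in Btla-/- for TRBV1. Other V genes lost 2.69 and 2.74 on average. A low loss was not particular to TRBV1, since TRBV2 lost fewer, 1.41 and 1.49. In WT TRBV31, TRBV12-2, TRBV5, TRBV12-1 and the joint TRBV12-2+TRBV13-2 call also lost fewer.

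The untrimmed end was the most frequent form. All 17 bases were present in 85 of 246 WT chains, 34.6% (28.6 to 40.9), and in 119 of 271 Btla-/- chains, 43.9% (37.9 to 50.04), and these intervals overlap. In chains of other V genes the whole start was kept in 23.1% (21.8 to 24.5) and 22.2% (21.1 to 23.4), below the TRBV1 interval of the same library. TRBV1 ranked 5 of 20 V genes by this share in WT and 2 of 20 in Btla-/-, with TRBV2 highest in both at 49.7% and 49.8%, so a high share is not particular to TRBV1. The other chains include 190 and 307 called TRBV10, whose whole start holds a stop codon in frame. None of these could keep it and be productive, and they lost the most bases on average, 4.805 and 4.775. Runs of 15 bases were less frequent than those on either side, 4.47% in WT and 6.27% in Btla-/- between 19.9% and 16.97% at 14 bases and 15.4% and 10.3% at 16 bases. The germline base after the first 15 is G. Of all trimmed TRBV1 ends, G followed 40.99% in WT and 35.5% in Btla-/-. The base after a run always differs from the germline one, so these shares do not give the rate at which G was added. An end cut at 15 bases and followed by an added G counts as a longer run. How much of the dip comes from this way of counting was not tested. Fewer than 9 bases, the length that spans the residue 3 cysteine, were kept by 1 WT chain and no Btla-/- chain.

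**Figure D1:**
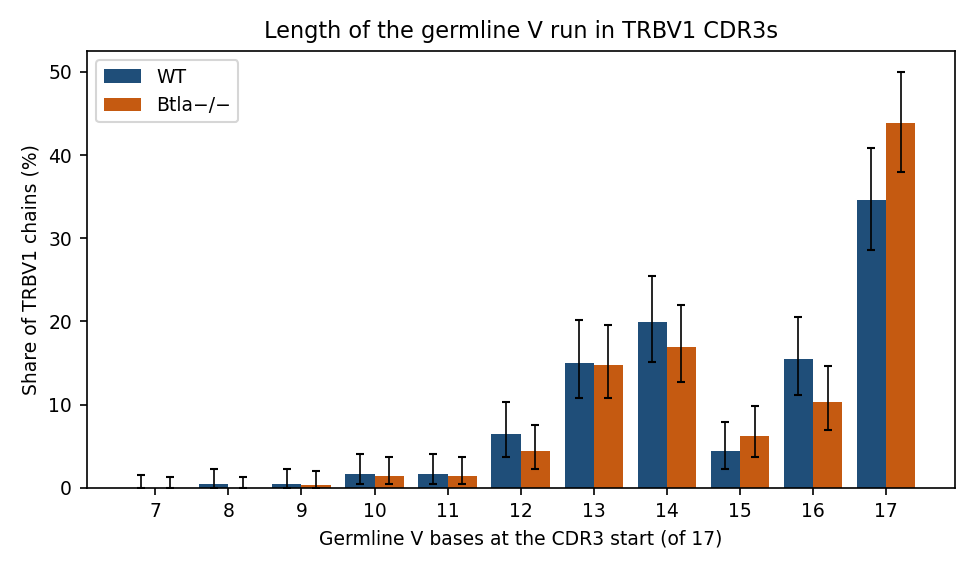
Share of TRBV1 chains (vertical axis, percent) by the number of germline V bases at the start of the CDR3 (horizontal axis, from 7 to 17 bases), with WT in blue and Btla-/- in orange and exact 95% intervals as bars. The highest bars stand at 17 bases in both libraries, 34.6% and 43.9%, and a dip lies at 15 bases. Added bases that match the genome can shift chains from 15 to longer runs.

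Where no V base was lost, the next base was often the palindromic one. After the whole TRBV1 start, T followed in 57 of 85 WT chains, 67.1% (56.0 to 76.9), and in 67 of 119 Btla-/- chains, 56.3% (46.9 to 65.4). T is the complement of the last germline base and is what a hairpin opened off its centre would leave. After trimmed TRBV1 ends T followed in 18.01% (12.4 to 24.8) of 161 WT chains and 17.8% (12.0 to 24.8) of 152 Btla-/- chains, well below. Untrimmed chains of other V genes had their own palindromic base in 53.8% (50.5 to 57.1) and 52.8% (49.7 to 55.7), inside or just below the TRBV1 intervals. The most frequent start of 18 bases in both libraries, shown with cysteine codons in capitals, was the germline start with this T.
Most frequent TRBV1 start: TGCaccTGCagtgcagat
It was carried by 57 WT chains, 23.2% (18.1 to 28.95), all different from each other over the full CDR3, and by 67 Btla-/- chains, 24.7% (19.7 to 30.3), in 63 distinct sequences.

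Read as amino acids, the TRBV1 start was nearly fixed for 4 residues and then opened. Threonine followed the first cysteine in every chain, and serine stood at residue 4 in 96.7% (93.7 to 98.6) of chains from WT and 97.8% (95.2 to 99.2) from Btla-/- mice. Alanine, the last residue that the segment encodes whole, was at residue 5 in 74.8% (68.9 to 80.1) and 77.5% (72.0 to 82.3). Glycine was next there, with 10.98% and 11.8%. Residue 6, whose codon the junction completes, was aspartate in 31.3% (25.6 to 37.5) of chains in WT, and in 33.9% (28.3 to 39.9) in Btla-/-, against 12.7% (11.6 to 13.7) and 13.6% (12.6 to 14.6) for other V genes. That share put TRBV1 at rank 2 and rank 1 of 20 V genes. It was not particular to TRBV1, since TRBV2 and TRBV5, whose starts also end in ga, had shares with overlapping intervals. TRBV2 had aspartate in 34.5% (27.8 to 41.8) and 30.9% (24.9 to 37.5). For TRBV5 it was 25.6% (20.8 to 30.8) and 30.2% (25.6 to 35.1) at residue 6. TRBV16, TRBV17 and TRBV10 have starts that end in ga too, but had lower shares. TRBV16 had 21.7% and 20.9%, TRBV17 17.2% and 20.3%, and TRBV10 7.37% and 11.7%. At residue 6 their intervals in Btla-/- lie below that of TRBV1, and in WT that of TRBV16 overlaps it. Glutamate, whose codon also begins with the last 2 germline bases, stood there in 7.72% (4.71 to 11.8) of chains in WT and 14.02% (10.1 to 18.7) in Btla-/-, and glycine in 25.6% (20.3 to 31.5) and 16.97% (12.7 to 22.0). Both pairs of intervals overlap between the genotypes. Glycine was the most frequent residue at residue 7, with 28.5% in WT and 26.9% in Btla-/-, and at residue 8, with 39.02% and 36.9%, the last position counted.

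TRBV1 was a gene of intermediate use. Its share of TRB chains was 5.94% (5.24 to 6.70) in WT and 5.23% (4.64 to 5.87) in Btla-/-, and these intervals overlap. Of the 21 V genes that reached 1% of the chains of either library 2, TRBV10 and TRBV19, had intervals that did not overlap, a background of 9.52%. The contigs called TRBV10 hold the framework that the annotation gives to Trbv4, so that name is the one of the V(D)J reference. In WT TRBV1 ranked 7 of 22, between TRBV13-1 with 253 chains and TRBV15 with 234. Its rank in Btla-/- was 10 of 22, between TRBV15 with 286 chains and TRBV29 with 227. The intervals of TRBV1 and of each of these neighbours overlap. Its share, at the far end of the locus, lay above the median of the other 19 V genes compared, which was 4.61% in WT and 4.38% in Btla-/-.

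**Figure D2:**
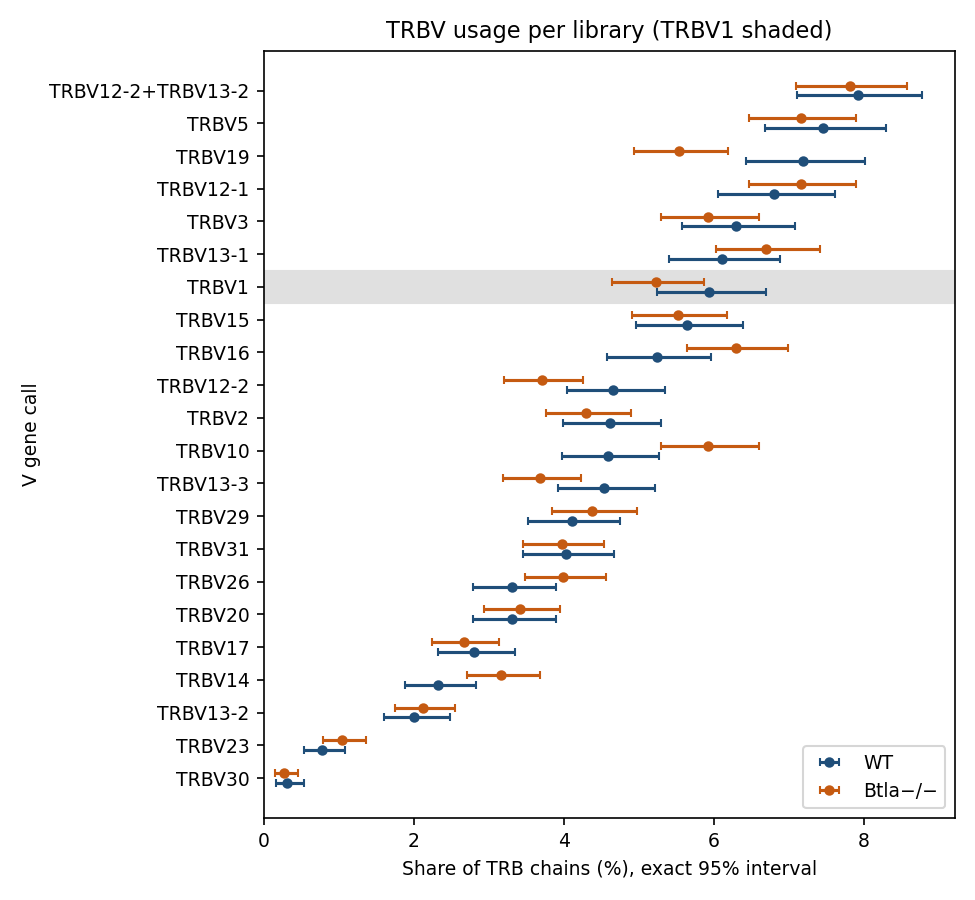
Share of TRB chains (horizontal axis, percent) for each of the 22 V gene calls (vertical axis, ordered by their share in WT), with WT in blue, Btla-/- in orange, exact 95% intervals as bars and TRBV1 shaded. TRBV1 lies in the upper middle of the order at 5.94% and 5.23%, with overlapping intervals.

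All 12 TRBJ segments in use were joined to TRBV1 in both libraries. Segments of the TRBJ2 cluster made up 152 of 246 WT chains, 61.8% (55.4 to 67.9), and 140 of 271 Btla-/- chains, 51.7% (45.5 to 57.8), with overlapping intervals. The other V genes gave 60.1% (58.5 to 61.6) and 60.3% (58.9 to 61.7), and the Btla-/- TRBV1 interval ended below the latter. With each distinct chain counted once the Btla-/- shares were 52.9% (46.6 to 59.1) for TRBV1 and 60.15% (58.7 to 61.6) for other V genes, and the intervals overlap. A low TRBJ2 share was not particular to TRBV1, since TRBV29 had 46.3% (39.6 to 53.0) in Btla-/-. The constant gene matched the J cluster in every TRBV1 chain that had one called, 245 in WT and 269 in Btla-/-. A TRBD segment was called in few TRBV1 chains and was missing in 75.6% and 80.4%, so D use is not described further.

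Most of the difference in TRBJ2 share lay in TRBJ2-7, the J segment nearest the TRBC2 constant gene. It was joined to 42 of 246 TRBV1 chains in WT, 17.1% (12.6 to 22.4), and to 21 of 271 in Btla-/-, 7.75% (4.86 to 11.6). These intervals do not overlap, which held for 1 of the 12 segments of TRBV1 and for 3 of 240 pairs of a V gene and a J segment, a background of 1.25%. With each distinct chain counted once the shares were 15.5% (11.1 to 20.8) of 232 and 7.72% (4.78 to 11.7) of 259, and the intervals overlap. In chains of other V genes TRBJ2-7 took 15.8% (14.7 to 17.03) and 15.2% (14.2 to 16.3), so it was the Btla-/- TRBV1 share that stood low. With 1 library per genotype, a difference between mice and a difference between genotypes cannot be told apart.

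Set against the other V genes of the same library, 0 of 12 TRBV1 segments in WT and 2 of 12 in Btla-/- had intervals that did not overlap. Over all V genes treated in this way the background was 5.83% in WT and 6.25% in Btla-/-. Beside TRBJ2-7 the segment was TRBJ1-6, with 22 of 271 TRBV1 chains, 8.12% (5.16 to 12.0), against 3.32% (2.84 to 3.86). Both stayed apart over distinct chains, at 7.72% (4.78 to 11.7) of 259 each. In WT the TRBJ1-6 share of TRBV1 was 4.47% (2.25 to 7.86), against 4.11%, and it overlaps the Btla-/- share. TRBJ1-5 and TRBJ2-2 were the least used with TRBV1 in WT, with 5 and 8 chains, and TRBJ1-5 and TRBJ1-3 in Btla-/-, with 13 and 14.

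Total variation distance, the share of chains that would have to change segment to make 2 usages equal, was 0.0691 between TRBV1 and the other V genes in WT and 0.110 in Btla-/-. Between the genotypes it was 0.168 for TRBV1, rank 6 of the 20 V genes, a measure that was not corrected for the number of chains. The V genes whose TRBJ usage was most like that of TRBV1, by the mean distance over both libraries and 12 segments, were TRBV13-1 (0.108), TRBV26 (0.124) and TRBV2 (0.126) of 19 compared. These means lie below the 0.168 of TRBV1 between the genotypes, so the order of near genes is uncertain. The nearest gene also differed, TRBV13-1 in WT (0.0810) and TRBV26 in Btla-/- (0.116).

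**Figure D3:**
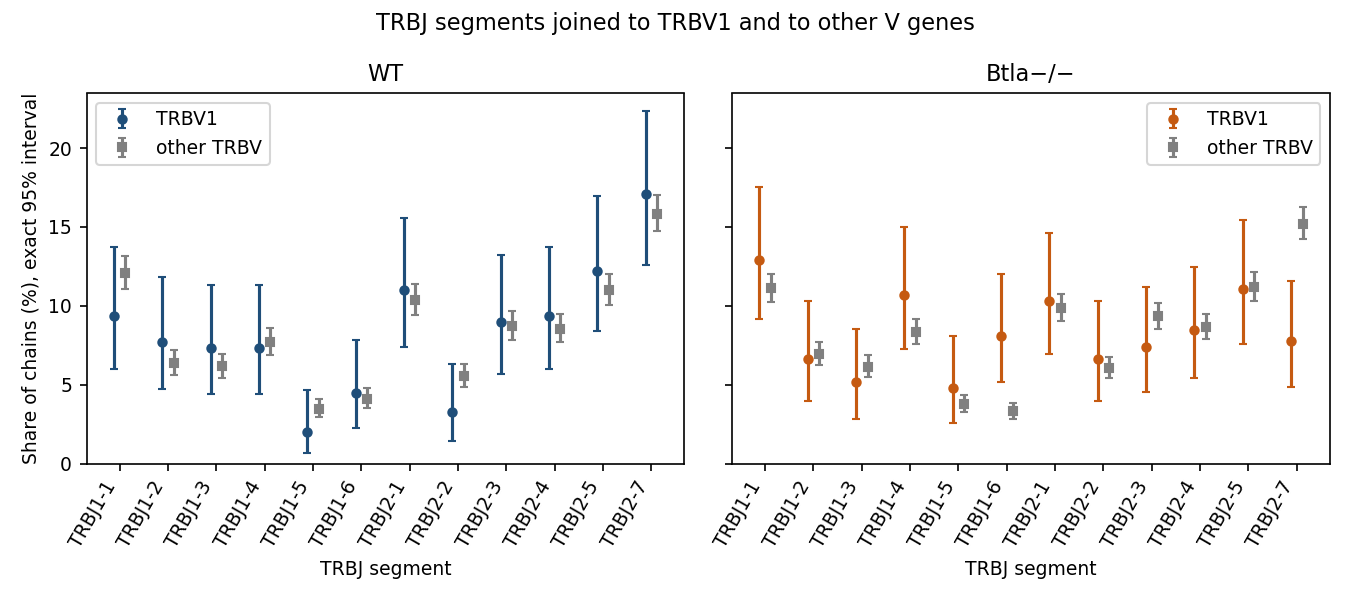
Share of chains (vertical axis, percent) joined to each of 12 TRBJ segments (horizontal axis) for TRBV1 (circles, WT in blue and Btla-/- in orange) and for all other V genes (grey squares), with exact 95% intervals as bars. In WT all TRBV1 intervals overlap those of the other V genes, whereas in Btla-/- TRBJ2-7 lies lower at 7.75% and TRBJ1-6 higher at 8.12%.

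TRBV1 CDR3s were slightly long. Their mean length was 14.59 ± 1.52 amino acids in WT (SD over 246 chains) and 14.77 ± 1.35 in Btla-/- (SD over 271 chains), counted from the first cysteine to the phenylalanine of the J segment, against 14.19 and 14.24 for other V genes. The difference was 0.40 amino acids in WT and 0.53 in Btla-/-, less than the SD over chains. TRBV1 ranked 3 of 20 V genes by mean length in WT and 1 of 20 in Btla-/-. It was longer than the other V genes with each of the 12 TRBJ segments in both libraries, by 0.0882 (TRBJ2-3) to 1.30 (TRBJ2-2) amino acids in WT and by 0.0788 (TRBJ2-5) to 0.944 (TRBJ1-6) in Btla-/-. These means rest on as few as 5 chains of TRBV1 in WT and 13 in Btla-/-, and no interval was set on them. Lengths ran from 10 to 19 in WT and from 10 to 18 in Btla-/-.

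The short side of the distribution was thin. CDR3s of 12 or fewer amino acids made up 6.91% (4.08 to 10.8) of TRBV1 chains in WT and 4.06% (2.04 to 7.15) in Btla-/-, against 13.3% (12.2 to 14.4) and 12.1% (11.2 to 13.1) of chains of other V genes, with intervals apart in both libraries. At 17 or more the TRBV1 shares were 8.54% (5.36 to 12.7) and 8.12% (5.16 to 12.0), against 5.08% (4.42 to 5.82) and 5.72% (5.09 to 6.41), with overlapping intervals. The most frequent TRBV1 length was 14 in WT, with 75 chains, and 15 in Btla-/-, with 78 chains.

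**Figure D4:**
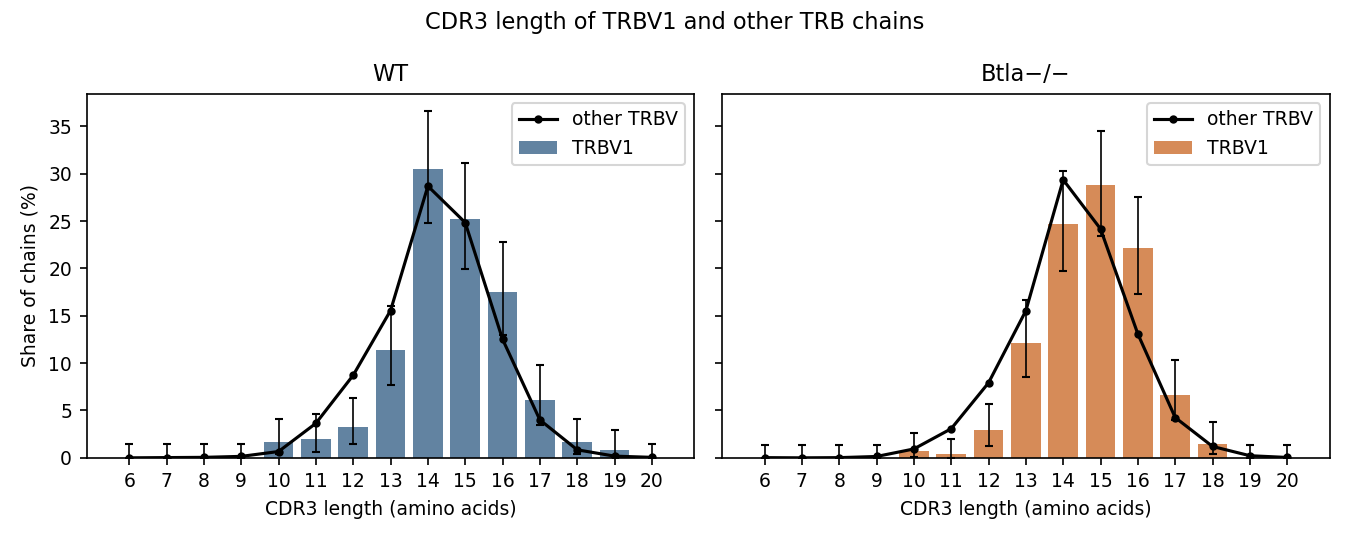
Share of chains (vertical axis, percent) by CDR3 length (horizontal axis, amino acids) for TRBV1 (bars with exact 95% intervals) and for all other V genes (black line) in WT (left) and Btla-/- (right). TRBV1 bars lie below the line at 11 and 12 amino acids and above it at 16 and 17 in both libraries.

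By parts, the extra length lay in the V run. In nucleotides TRBV1 exceeded the other V genes by 1.20 in WT and 1.58 in Btla-/-, made up of 1.45 and 1.75 more V bases, a change of -0.33 and -0.58 in the middle of the loop between the germline runs, and 0.07 and 0.42 more J bases. The middle measured 10.22 ± 3.92 bases in WT and 10.18 ± 3.62 in Btla-/- (SD over chains), and TRBV1 was among the V genes with short middles, at rank 16 and 17 of 20. The V genes above TRBV1 in V bases kept were TRBV2 and, in WT, TRBV5, with mean lengths of 14.91 and 14.66 (TRBV2) and 14.80 and 14.74 (TRBV5) amino acids in WT and Btla-/-. TRBV20, with the lowest mean of 11.91 and 11.68 V bases, had the lowest mean length, 13.35 and 13.41 amino acids. This is a description of 20 V genes, whose germline starts differ in length.

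**Figure D5:**
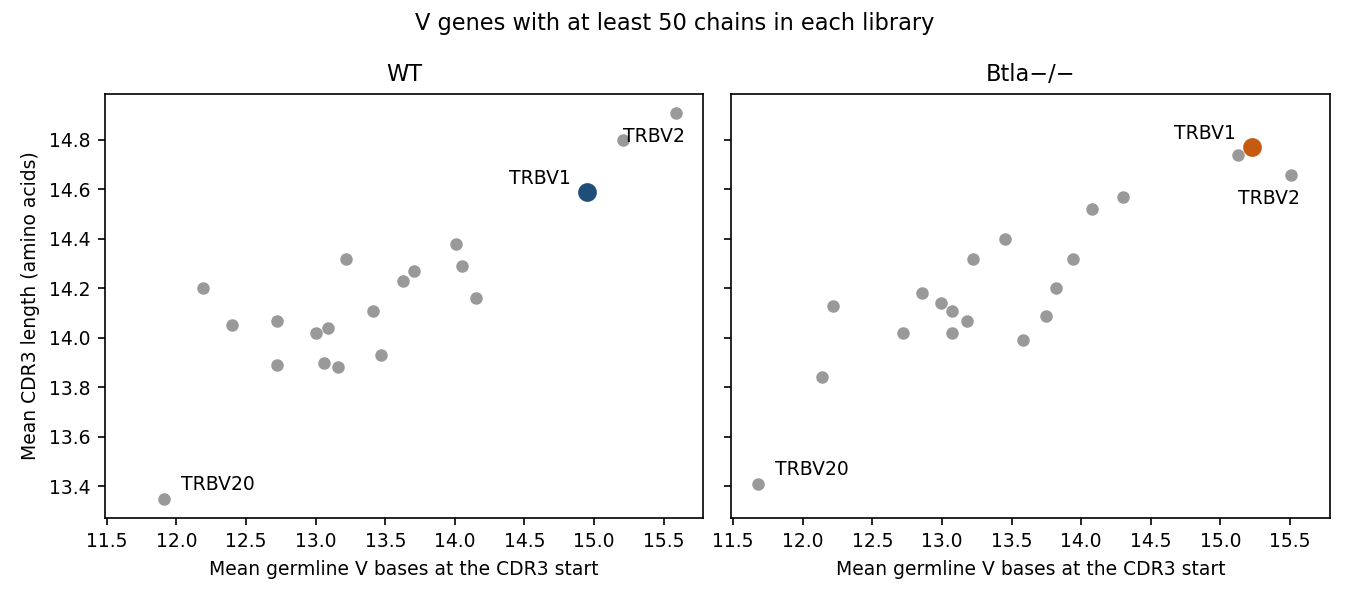
Mean CDR3 length (vertical axis, amino acids) against the mean number of germline V bases at the CDR3 start (horizontal axis) for 20 V genes with at least 50 chains in each library, WT on the left and Btla-/- on the right, with TRBV1 as the large coloured point. TRBV1 lies at the upper right in both, at 14.95 bases and 14.59 amino acids in WT and 15.23 bases and 14.77 amino acids in Btla-/-.

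Partner TRA chains were recovered for a minority of cells. Of 245 WT cells with TRBV1 101 had a TRA chain, 41.2% (35.0 to 47.7), as had 101 of 271 Btla-/- cells, 37.3% (31.5 to 43.3). Cells with other V genes had one in 41.8% and 34.5%, inside these intervals. The 109 TRA chains of each library were spread over many TRAV subgroups. In WT TRAV6 and TRAV12 led with 14 chains each, followed by TRAV7 and TRAV13 with 12 each. TRAV7 led in Btla-/- with 15 chains, followed by TRAV6 and TRAV13 with 14 each. No subgroup had intervals apart from the partners of other V genes, 0 of 20 in WT and 0 of 19 in Btla-/-, against a background over all V genes of 0.5% and 0.789%. The nearest was TRAV10 in WT, with 8 chains, 7.34% (3.22 to 13.9), against 2.44% (1.76 to 3.28), while in Btla-/- it had 3 chains, 2.75%, against 2.80%. At 109 chains, differences of several percentage points were not detectable.

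TRAJ segments from TRAJ1 to TRAJ30 took 46.8% (37.2 to 56.6) of the partners of TRBV1 in WT and 57.8% (48.0 to 67.2) in Btla-/-, and the partners of other V genes gave 48.4% and 57.7%, so TRBV1 followed its library. The TRAV11 with TRAJ18 chain is that of invariant NKT cells, which recognise lipids. Of TRBV1 cells with TRA, 1 of 101 in WT and 0 of 101 in Btla-/- had it. Among cells with other V genes it was found in 7 of 1572, 0.445%, and 9 of 1634, 0.551%. A TRAV1 chain with TRAJ33, the pair of MAIT cells, was found with TRBV1 in 0 cells of either library, which allows up to 3.59% by the exact interval. Cells with other V genes held it in 2 of 1572 and 1 of 1634, too rare for 101 cells to resolve.

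More than 1 TRB chain was found in 16 of 245 WT cells with TRBV1, 6.53% (3.78 to 10.4), and in 19 of 271 Btla-/- cells, 7.01% (4.27 to 10.7). A cell with more chains has more chances to hold any given V gene, so the fair comparison is the same share for each other V gene. Its median over 19 V genes was 6.91% in WT and 6.25% in Btla-/-, with TRBV1 at rank 12 and 7 of 20. In 1 WT cell both chains were TRBV1. TRBV12-2 was the most frequent partner in WT, in 5 of 16 cells, and TRBV3 and TRBV13-3 in Btla-/-, in 3 of 19 each.

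TRBV1 contigs had a higher median UMI count than other TRB contigs, clear of the counting interval only in Btla-/-. The median was 15 UMIs (quartiles 9 and 24, range 2 to 182) in WT and 13 (quartiles 7 and 20, range 1 to 120) in Btla-/-, against 13 and 10 for other V genes, a ratio of 1.15 and 1.30. Median reads were 4797.5 and 3596, against 4113 and 2841. The quartile ranges overlap widely, and TRBV1 ranked 5 and 2 of 20 V genes by median UMIs. UMIs per contig reflect capture, amplification and assembly as well as transcript number, and their parts were not tested. The median TRBV1 contig was 571 bases long in both libraries, against 545 and 541 for other V genes. Only 4 TRBV1 contigs in each library rested on 1 or 2 UMIs.

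Most TRBV1 chains were seen once. The 246 WT chains were 232 distinct nucleotide sequences and the 271 Btla-/- chains 259. In WT 7 sequences were repeated, in 21 chains, and the largest were found in 5, 4, 3 and 3 cells. All 12 repeated sequences of Btla-/- were found in 2 cells each. The 15 WT cells with a sequence in 3 or more cells had no TRA chain, 0% (0 to 21.8), against 44.6% (38.0 to 51.4) of 224 cells with a sequence found once. For other V genes in WT the share was 28.2% (19.0 to 39.04) of 85 cells with a sequence in 3 or more cells and 42.7% (41.1 to 44.4) of cells with a sequence found once. Whether such cells were 1 clone or held RNA of 1 cell spread over several droplets was not tested. In Btla-/- 3 of the repeated sequences had a TRA chain in both cells, and each time it was the same chain. The largest sequence was the TRBJ2-7 chain with an added cysteine shown above, with 4 to 9 UMIs a cell, and the others are shown with cysteine codons in capitals.
WT, TRBJ2-4, in 4 cells: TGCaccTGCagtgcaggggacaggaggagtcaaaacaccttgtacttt
WT, TRBJ1-3, in 3 cells: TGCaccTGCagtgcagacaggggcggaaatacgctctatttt
WT, TRBJ2-7, in 3 cells: TGCaccTGCagtgggtatgaacagtacttc
No TRBV1 CDR3 was shared between the genotypes, neither as nucleotides nor as amino acids, which allows up to 1.30% of the 231 distinct WT amino acid sequences and 1.16% of the 259 of Btla-/-. Other V genes shared 18 amino acid sequences, 0.481% of 3738 in WT and 0.384% of 4687 in Btla-/-. That share lies below what the TRBV1 numbers could resolve.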

How the data were processed

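TCR transcripts of CD4 SP thymocytes were sequenced in 1 WT and 1 Btla-/- library with the 10x Genomics V(D)J workflow. The authors assembled and annotated contigs with Cell Ranger 7.2.0 against its prebuilt GRCm38 V(D)J reference, and for each contig the deposited tables hold its counts of reads and of UMIs, not normalized, for productive chains of called cells. Deposited summary tables were not used here.

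Every TRB contig with V gene TRBV1 was a member. Germline V and J parts of the CDR3 were read from GRCm38 with GENCODE M21, each V segment ending at its heptamer. The V run was counted from the CDR3 start and the J run from its end, each as the longest match to the genome, and the rest was the middle. Shares carry exact Clopper-Pearson 95% intervals (scipy 1.17.1, pandas 2.3.3, Python 3.11.15), and a 0 is bounded by 3 counts unless the exact interval is named. Intervals and bounds cover counting error only. V genes with at least 50 chains in each library, 20 in all, were ranked.

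The named genes were every TRBJ segment, the V genes next to TRBV1 in share and those with intervals apart, the 3 V genes nearest in TRBJ usage, and the leading TRAV subgroups. Members and lists were chosen with earlier results of these data known. The splitting of CDR3s was tested on 2000 simulated sequences, where the V run exceeded the bases truly kept by 0.239 on average. The simulation drew all 4 bases equally often, without D segments or palindromic bases. With these limits, the excess in the data can differ. In WT, G followed 40.99% and A 7.45% of trimmed TRBV1 ends. A run stops where the base differs from the germline one, so these shares do not measure the make-up of added bases. Alternatives were contigs with at least 3 UMIs, 1 TRB contig per cell, cells with 1 TRB contig, cells with 1 TRA and 1 TRB contig, distinct chains, and barcodes of both libraries left out.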

Additional observations from a re-analysis of the deposited data

Results flagged for a closer look

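TRBV1 was set against the other V genes for a chosen set of measures, and in 4 of them it lay on opposite sides in the 2 libraries. In each the difference between the libraries was not tested. The set was not complete, since other values also changed sides, such as glycine at residue 6. That residue took 25.6% of TRBV1 and 25.3% of other chains in WT, and 16.97% and 24.5% in Btla-/-. The TRBJ2 share of TRBV1 minus that of other V genes was 1.71 percentage points in WT and -8.67 in Btla-/-. For TRBJ2-7 the same difference was 1.23 and -7.46 percentage points. For the share of CDR3s with a cysteine that the V segment does not encode it was 2.35 and -0.588 percentage points, where 5 of the 8 WT chains were 1 sequence. For the share of cells with a TRA chain it was -0.54 and 2.82 percentage points, within the counting interval of TRBV1 in both libraries.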

How the results depend on the processing

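Of 80 shares under the alternatives 73 stayed inside the exact 95% interval of the reported share and 7 moved outside it. Of 46 means, differences and medians 45 stayed inside an approximate 95% interval over chains, which are not replicates, and 1 moved outside it. The length difference from other V genes kept its sign throughout. In cells with 1 TRA and 1 TRB contig, which left 78 WT chains, the TRBJ2 share of TRBV1 was 53.85%, the share with an added cysteine 1.28%, and the length difference from other V genes 0.668 amino acids. In those cells and in cells with 1 TRB contig the WT share with the germline cysteine was 100%, since the single chain without it shared its cell with another TRB chain. With at least 3 UMIs per contig the share of TRBV1 cells with a TRA chain was 28.2% in WT and 19.5% in Btla-/-, as TRA contigs with fewer UMIs were left out. The TRBJ2-7 share and the share with all germline V bases were added after the data were seen. The first kept intervals apart between genotypes in 4 of 6 alternatives. They overlapped over distinct chains and in cells with 1 TRA and 1 TRB contig, where the shares were 15.4% in WT and 3.95% in Btla-/-. With 1 library per genotype no library could be left out and no spread between mice was measured. No paired analysis was possible because each genotype had 1 library and no result came from a test.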
